A study of Mus musculus with 9 samples.

Results

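The 9 genes described here carry out the synthesis, packaging, reuptake and breakdown of dopamine, serotonin and noradrenaline: Th, Tph2, Ddc, Dbh, Slc6a3, Slc6a4, Slc18a2, Maoa and Maob. They were chosen by name, with earlier results of these data known. They are 9 of the 19505 genes that the platform annotation names on the array. Each of the 9 had 1 probe set on the array. Brain RNA of male mice was hybridised to Clariom S arrays, and each of the 3 groups had 3 arrays. The groups were wild-type mice (C57BL/6JHamSlc-+/+) given vehicle, obese mice (C57BL/6JHamSlc-ob/ob) given vehicle, and ob/ob mice given VE, an extract of Vigna umbellata, by oral gavage at 100 mg/kg body weight. Mice were 6 weeks old on arrival, all were on standard chow, and dosing lasted 42 days. The ob/ob mouse lacks functional leptin, so its obesity is that of a hormone deficiency and not of a diet. The design text names white adipose tissue and also a dose of 50 mg/kg, whereas the labels name brain and 100 mg/kg; a group at the smaller dose was not used here. The labels name no brain region, and they mark the replicates as separate samples without saying more of the animals, so the tests measure the spread between these samples.

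Dopamine and noradrenaline are made from tyrosine and serotonin from tryptophan, each by a hydroxylase that sets the pace of the pathway and a shared decarboxylase. The transmitters are then loaded into vesicles, released, taken back up by transporters of the plasma membrane and oxidised on the outer membrane of mitochondria. The cell bodies that make them lie in small nuclei: dopamine neurons mainly in the ventral midbrain, serotonin neurons in the raphe nuclei of the brainstem, and noradrenaline neurons in the locus coeruleus and other brainstem groups. Leptin receptors are found on some midbrain dopamine neurons, and monoamine transmission in the brain takes part in the control of feeding.

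The promoters of 4 of these genes are shown because Tph2 and Slc18a2 were the members with the largest differences between groups, Th holds the same rare motif as Slc18a2, and Ddc holds the response element of Nr4a2, the only gene called among the pathway lists described further on. The sequences are RefSeq's on GRCm38.p6, on the strand of the gene, from 250 bases before the start to 30 after it. Capitals mark exact matches on either strand to the cyclic AMP response element (TGACGTCA), the Nr4a response element NBRE (AAAGGTCA), the TATA box (TATAAA), the GATA site (spelled AGATAA, or else spelled TGATAA, or else spelled AGATAG, or else spelled TGATAG) and the GC box (GGGCGG).
Tph2, chr10:115184993-115185272, minus strand: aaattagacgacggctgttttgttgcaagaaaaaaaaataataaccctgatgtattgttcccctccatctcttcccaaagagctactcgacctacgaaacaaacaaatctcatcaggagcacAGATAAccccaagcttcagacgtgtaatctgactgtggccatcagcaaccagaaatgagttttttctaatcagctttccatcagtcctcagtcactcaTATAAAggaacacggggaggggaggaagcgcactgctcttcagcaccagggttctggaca
Slc18a2, chr19:59260628-59260907, plus strand: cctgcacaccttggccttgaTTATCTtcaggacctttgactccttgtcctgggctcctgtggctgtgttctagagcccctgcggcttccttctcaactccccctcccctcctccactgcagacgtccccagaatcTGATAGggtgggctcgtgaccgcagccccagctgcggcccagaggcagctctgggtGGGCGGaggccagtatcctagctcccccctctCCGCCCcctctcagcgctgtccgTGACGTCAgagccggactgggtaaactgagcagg
Th, chr7:142899966-142900245, minus strand: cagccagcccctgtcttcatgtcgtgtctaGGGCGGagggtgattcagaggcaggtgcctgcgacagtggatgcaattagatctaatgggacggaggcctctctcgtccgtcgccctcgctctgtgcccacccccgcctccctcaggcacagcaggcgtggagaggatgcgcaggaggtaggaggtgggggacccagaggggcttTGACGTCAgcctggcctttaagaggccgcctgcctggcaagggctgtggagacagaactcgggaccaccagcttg
Ddc, the upstream of its 2 windows, chr11:11898115-11898394, minus strand: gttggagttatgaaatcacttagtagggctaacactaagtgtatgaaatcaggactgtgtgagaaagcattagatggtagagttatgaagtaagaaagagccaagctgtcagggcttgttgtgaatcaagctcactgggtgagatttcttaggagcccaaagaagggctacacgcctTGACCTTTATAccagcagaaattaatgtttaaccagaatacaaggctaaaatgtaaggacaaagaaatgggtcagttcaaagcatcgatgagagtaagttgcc

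In the Tph2 window the TATA box began at -30 and a GATA site at -128, counted from the start. The cyclic AMP response element began at -4 in Slc18a2 and at -45 in Th, and 1.79% of the 32851 RefSeq promoter windows of 300 bases held it. The Ddc window held the NBRE on the opposite strand from -73 (1.51% of windows), overlapping a TATA box match on that strand from -68 (13.6%). Of the 8 members with a promoter in the table, 5 held a GC box (35.7% of windows) and 4 a GATA site (29.8%). Slc6a3, Slc6a4 and Maoa had windows with GC boxes, Dbh had a window without any of these motifs, and the second Ddc window had none either. A match describes letters in the window and is not evidence of binding.

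The arrays carried brain RNA by their markers. Snap25 and Syt1 of neurons, Mbp of myelin and Gfap of astrocytes stood at log2 signals of 15.16 to 18.78, 15.47 to 19.37, 14.91 to 18.69 and 9.93 to 12.11 over the 9 arrays. The second VE array was unlike the rest: it correlated with them at 0.962 to 0.97, where the other 8 correlated with each other at 0.979 to 0.993, and its values spread less (SD 2.38, others 2.56 to 2.84). Most of the members, 6 of 9, were dim. As a guide to how dim, and not as a detection call, 1462 probe sets of olfactory, vomeronasal and keratin-associated genes had a mean log2 signal with a 95th percentile of 7.90. Tph2 (8.71), Maoa (8.85) and Maob (10.51) had means over the 9 arrays above that value. Slc18a2 (6.81), Th (6.33), Ddc (6.17), Slc6a4 (6.07), Slc6a3 (5.73) and Dbh (5.23) did not. Those guide probe sets themselves had a median difference of 0.35 between ob/ob vehicle and wild type, and of -0.28 between VE and ob/ob vehicle, and 0.20 and -0.18 after quantile normalization.

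In ob/ob vehicle against wild-type brain, Tph2 stood 0.87 log2 units higher, Slc18a2 0.50 higher and Slc6a4 0.26 higher, with the other 6 between -0.19 and 0.30. None of the 9 passed the test (limma adjusted p 0.198 to 0.758), against 1.27% of all 22206 probe sets called. At unadjusted p under 0.05, which with a fold over 1.1 is the authors' rule, 1 member (Tph2) passed, against 20.1% of probe sets. The 3 ob/ob arrays lay above the 3 wild-type arrays for Tph2, Slc6a4 and Slc18a2, and 15.8% of probe sets did the same (33.3% in either direction). The estimate was above 0 for 7 of 9 members and for 51.3% of probe sets, and its median was 0.18 against 0.02 over all probe sets.

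In VE against ob/ob vehicle brain, which uses the same 3 ob/ob arrays, Tph2 stood at -0.68 and Slc18a2 at -0.60, and Ddc, Slc6a4 and Maoa at 0.30, 0.23 and 0.20. None passed the test (limma adjusted p 0.287 to 0.99, 0.486% of probe sets called), and 1 (Slc18a2) passed the authors' rule, against 13.3% of probe sets. Slc18a2 was the member whose VE arrays all lay below the ob/ob arrays, as they did for 11.9% of probe sets (16.5% in either direction). Without the second VE array, 4 members did not overlap (Tph2 and Slc18a2 lower, Ddc and Maoa higher), against 33.6% of probe sets in either direction. The estimate was above 0 for 3 of 9 members and for 41.7% of probe sets, and the median of the 9 differences was -0.09, against -0.07 over all probe sets.

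In VE against wild-type brain, Slc6a4 stood 0.49 higher, and the other 8 were between -0.10 and 0.19. None passed the test (limma adjusted p 0.435 to 0.993, 0.0991% of probe sets called) or the authors' rule (12.2% of probe sets). Slc6a4 was above every wild-type array on all 3 VE arrays, as were 5.34% of probe sets (16.8% in either direction). The estimate was above 0 for 7 of 9 members and for 41.1% of probe sets. The moderated F test over the 3 groups called none of the members either (limma adjusted p 0.271 to 0.9), and 1.07% of probe sets.

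**Figure D1:**
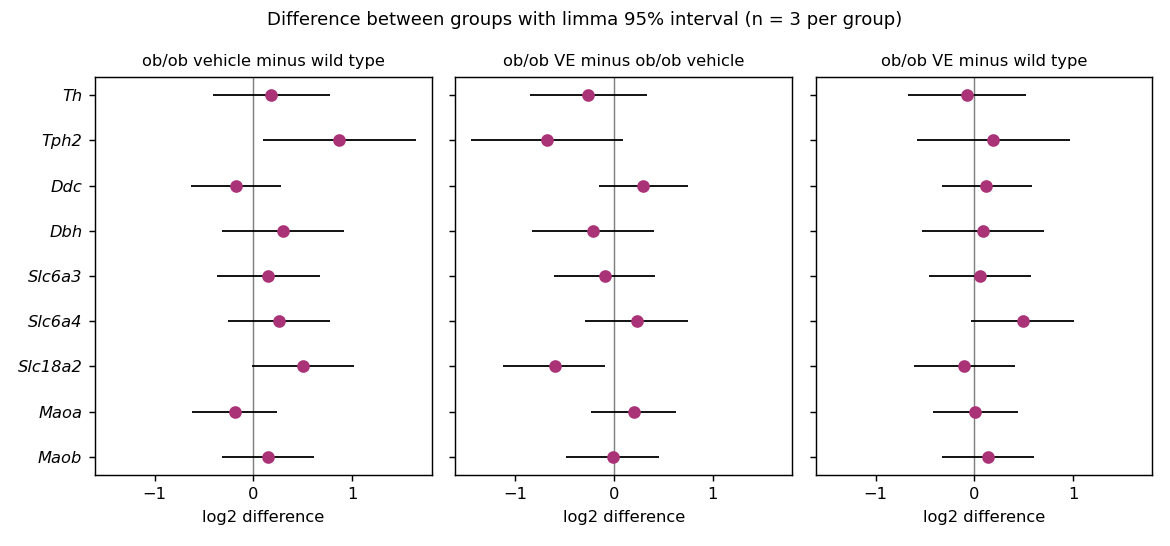
Log2 difference of each of the 9 genes in the 3 comparisons, as points with limma 95% intervals (3 arrays per group). The intervals leave out 0 for Tph2 in ob/ob vehicle minus wild type (0.10 to 1.65) and for Slc18a2 in VE minus ob/ob vehicle (-1.12 to -0.09), before adjustment over the 22206 probe sets.

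Tph2 encodes the tryptophan hydroxylase of serotonin neurons, which starts serotonin synthesis in the brain. Its log2 signals were 7.96, 8.54 and 8.57 in wild type, 8.98, 9.64 and 9.07 in ob/ob vehicle, and 7.79, 9.45 and 8.41 in VE. All ob/ob vehicle arrays were above all wild-type arrays, and the VE arrays spread from below the lowest wild-type array to within the ob/ob range. The group means were 8.36 ± 0.344, 9.23 ± 0.358 and 8.55 ± 0.839 (SD, n = 3). The difference of ob/ob vehicle from wild type was 0.87 (SE 0.358, 95% interval 0.10 to 1.65, limma adjusted p 0.198), and that of VE from ob/ob vehicle -0.68 (95% interval -1.45 to 0.09, limma adjusted p 0.446). The VE mean was 0.19 above wild type (limma adjusted p 0.851).

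The high VE value of Tph2 was on the second VE array, the array that stood apart. Without that array the 2 remaining VE arrays lay below the ob/ob vehicle arrays. The difference was then -1.13 from ob/ob vehicle (limma adjusted p 0.0403), and -0.26 from wild type (limma adjusted p 0.817). The estimate for ob/ob vehicle against wild type does not use that array and stayed at 0.87, but the spread that all groups share became smaller and its limma adjusted p was 0.0261. With the 2 groups alone it was 0.0273, and with array weights the difference was 0.83 (limma adjusted p 0.0246). Without wild-type array 1 it was 0.68, and without ob/ob array 2 it was 0.67, and the difference was not called in either. Some settings change only the test, the threshold, the probe sets tested or the VE arrays. They reuse the same wild-type and ob/ob vehicle values, so the sign of this difference could not change there. Tph2 was higher in ob/ob vehicle under all 21 other settings (0.67 to 1.01, limma adjusted p 0.0246 to 0.485) and passed the threshold of 5 of them, the authors' rule included. Those 5 settings called many of the 22206 probe sets, where the fit as deposited called 281. The counts were 2975 without the second VE array, 2626 with the 2 groups alone and 3601 with array weights. They were 1970 with quantile normalization without the second VE array and 4457 by the authors' rule.

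Slc18a2 encodes the vesicular monoamine transporter, which loads dopamine, serotonin and noradrenaline into vesicles. Its log2 signals were 6.59, 6.69 and 6.75 in wild type, 6.94, 7.70 and 6.90 in ob/ob vehicle, and 6.69, 6.70 and 6.34 in VE. All 3 ob/ob vehicle arrays were above the other 6, ob/ob array 2 by the most, and the VE and wild-type arrays overlapped. The ob/ob vehicle mean was 0.50 above wild type (SE 0.238, 95% interval -0.01 to 1.02, limma adjusted p 0.259). The VE mean was at -0.60 from ob/ob vehicle (95% interval -1.12 to -0.09, limma adjusted p 0.287), and at -0.10 from wild type (limma adjusted p 0.89). Without ob/ob array 2 the first difference was 0.24 and the second -0.34, so that array supplied much of both. Without the second VE array the second difference was -0.67.

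**Figure D2:**
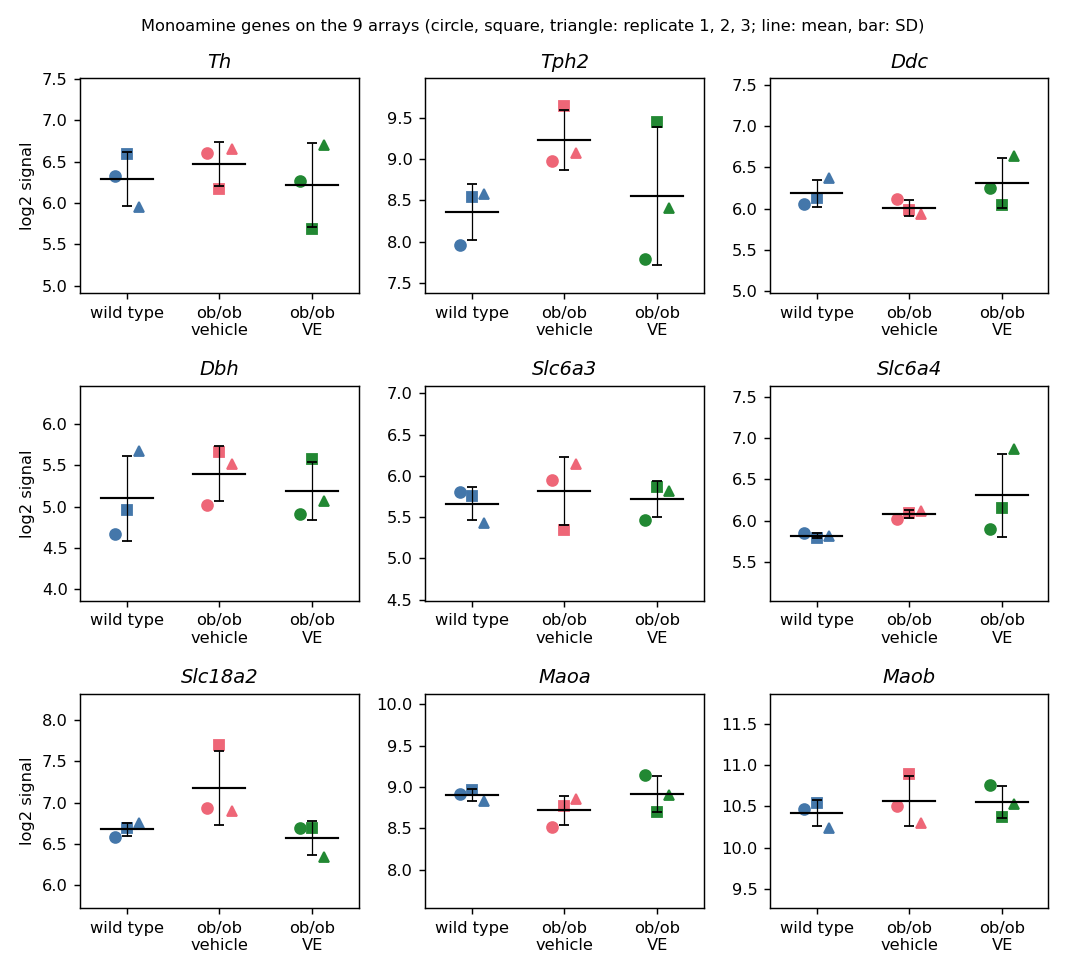
Log2 signal of the 9 genes on each array, by group, with the replicate number as the marker, the group mean as a line and the SD as a bar (n = 3); each panel has its own range, of equal height. Tph2 and Slc18a2 are highest in ob/ob vehicle, and the second VE array (square) carries the highest VE value of Tph2, 9.45.

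**Figure D3:**
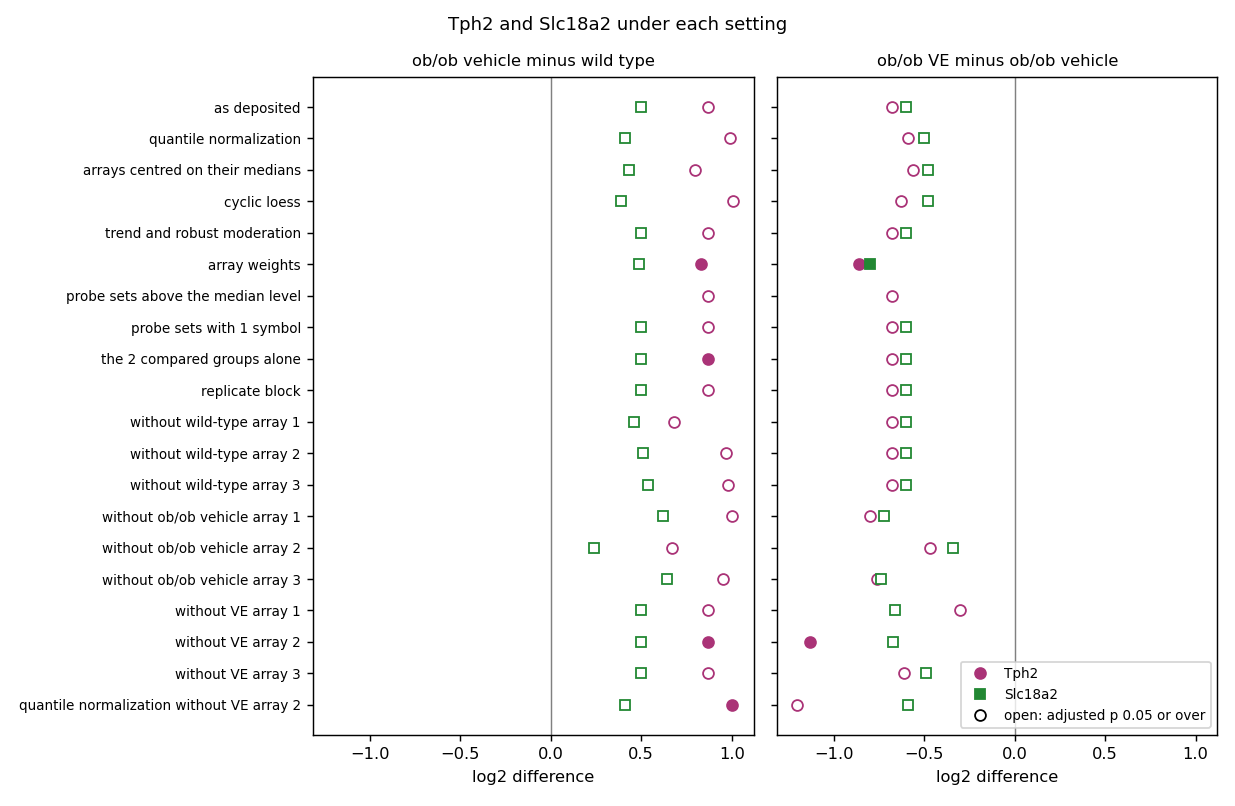
Log2 difference of Tph2 (circles) and Slc18a2 (squares) in the first 2 comparisons under each processing setting, filled where limma's adjusted p was under 0.05. Every Tph2 and Slc18a2 point keeps its side of 0, and few are filled. A point could not move where a setting reuses the same values of the compared groups.

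None of 9 measured hindbrain genes and none of 10 measured genes of serotonin neuron identity was called in any of the 3 comparisons. Over all probe sets 1.27%, 0.486% and 0.0991% were called in them, so a lack of calls in lists of this size says little. The hindbrain list median, taken as the deviation from the wild-type mean, was -0.06 to 0.08 on the wild-type arrays, -0.06 to 0.36 on the ob/ob vehicle arrays and -0.13 to 0.02 on the VE arrays, and it was highest on ob/ob array 2. For the genes of serotonin neuron identity it was -0.02 to 0.06, -0.24 to 0.17 and -0.20 to -0.02, again highest on ob/ob array 2. Neuron markers were at -0.77 to -0.36 on ob/ob vehicle arrays and at -1.71 on the second VE array, astrocyte markers at -0.98 to -0.47 and oligodendrocyte markers at -1.45 to -0.90 on ob/ob vehicle arrays. The medians of the hindbrain differences were 0.25, -0.03 and 0.06 in the 3 comparisons, where the dim guide probe sets had 0.35, -0.28 and 0.05. The part of these marker values in the values of Tph2 and Slc18a2 was not tested. Bright probe sets at large were also lower in ob/ob vehicle than in wild type. The third with the highest signal had a median of -0.27, and of -0.04 after quantile normalization. The part of that array-wide shift in the marker values was not tested. In bulk brain, fewer cells of a type and less RNA per cell cannot be told apart either.

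Th encodes tyrosine hydroxylase, which starts dopamine and noradrenaline synthesis. The Th signals on the log2 scale were 6.33, 6.59 and 5.95 in wild type, 6.60, 6.17 and 6.65 in ob/ob vehicle, and 6.27, 5.68 and 6.70 in VE. The 3 groups overlapped throughout, with the lowest value on the second VE array. Th differed by 0.18 between ob/ob vehicle and wild type (SE 0.275, limma adjusted p 0.739) and by -0.26 between VE and ob/ob vehicle (limma adjusted p 0.742), and without the second VE array the latter was 0.01. A 95% interval of -0.41 to 0.78 for ob/ob vehicle against wild type shows how much these arrays leave undecided.

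Ddc encodes the aromatic amino acid decarboxylase, the step shared by dopamine and serotonin synthesis. Log2 signals of Ddc were 6.06, 6.13 and 6.37 in wild type, 6.12, 5.98 and 5.93 in ob/ob vehicle, and 6.25, 6.04 and 6.64 in VE. The ob/ob vehicle arrays were at the low end and overlapped both other groups. The differences were -0.18 (ob/ob vehicle against wild type, limma adjusted p 0.67), 0.30 (VE against ob/ob vehicle, limma adjusted p 0.577) and 0.12 (VE against wild type, limma adjusted p 0.836), each with an SE of 0.21. With array weights VE was 0.60 above ob/ob vehicle (limma adjusted p 0.0202), a setting that called 3307 of the 22206 probe sets.

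Dbh encodes the enzyme that turns dopamine into noradrenaline inside vesicles. On the log2 scale Dbh was at 4.67, 4.96 and 5.67 in wild type, 5.02, 5.66 and 5.52 in ob/ob vehicle, and 4.91, 5.58 and 5.07 in VE. The arrays of each group spread over most of the range of the others. Its differences were 0.30, -0.21 and 0.09 in the 3 comparisons in the same order (SE 0.287, limma adjusted p 0.586, 0.806 and 0.923).

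Slc6a4 encodes the serotonin transporter, which takes serotonin back into the neurons that release it. Log2 signals of Slc6a4 were 5.85, 5.79 and 5.81 in wild type, 6.02, 6.09 and 6.12 in ob/ob vehicle, and 5.90, 6.15 and 6.87 in VE. Every ob/ob array, treated or not, was above every wild-type array, and the third VE array was the highest. The differences from wild type were 0.26 in ob/ob vehicle (SE 0.24, limma adjusted p 0.57) and 0.49 in VE (95% interval -0.03 to 1.01, limma adjusted p 0.435), and VE differed from ob/ob vehicle by 0.23 (limma adjusted p 0.733). After quantile normalization the first of these was 0.08, and without the third VE array the VE difference from wild type was 0.21. With array weights the VE differences were 0.69 from ob/ob vehicle (limma adjusted p 0.023) and 0.96 from wild type (limma adjusted p 0.00168). That setting called 3307 and 3286 of the 22206 probe sets in these comparisons, so a call is common there.

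Slc6a3 encodes the dopamine transporter. On the log2 scale Slc6a3 was at 5.80, 5.76 and 5.43 in wild type, 5.95, 5.35 and 6.14 in ob/ob vehicle, and 5.47, 5.87 and 5.82 in VE. The ob/ob vehicle arrays held the lowest and the highest of the 9 values. The differences were 0.15, -0.09 and 0.06 (SE 0.24, limma adjusted p 0.758, 0.907 and 0.941), and the sign of the first was the other way after quantile normalization (-0.03).

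Maoa encodes the monoamine oxidase that prefers serotonin and noradrenaline. Maoa signals on the log2 scale were 8.92, 8.97 and 8.83 in wild type, 8.52, 8.77 and 8.86 in ob/ob vehicle, and 9.14, 8.70 and 8.90 in VE. The lowest value was on ob/ob array 1 and the highest on the first VE array, and the groups overlapped. The differences were -0.19, 0.20 and 0.01 (SE 0.199, limma adjusted p 0.622, 0.723 and 0.993), and the first 2 kept their sign under all 21 settings. Settings that reuse the same values of the compared groups could not change that sign.

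Maob, the neighbour of Maoa on chromosome X, encodes the oxidase that is prominent in astrocytes and serotonin neurons. Its log2 signals were 10.47, 10.54 and 10.24 in wild type, 10.50, 10.89 and 10.30 in ob/ob vehicle, and 10.76, 10.37 and 10.53 in VE. The highest value was again on ob/ob array 2, and the groups overlapped. Its differences were 0.15, -0.01 and 0.14 (SE 0.216, limma adjusted p 0.735, 0.99 and 0.821). Astrocyte markers were lower on the same ob/ob vehicle arrays, with all 9 estimates below 0 and 3 of 9 called, and the median of the list was -0.74. In that comparison 1.27% of all probe sets were called. The third of probe sets with the highest signal had a median of -0.27, and of -0.04 after quantile normalization.

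The size of the difference between ob/ob vehicle and wild type went with signal level over the whole array. When the probe sets were ranked by mean signal and cut into 3 bins of 7402, the median difference was 0.17 in the dimmest, 0.07 in the middle and -0.27 in the brightest bin, and 0.01, 0.00 and -0.04 after quantile normalization. Dbh, Slc6a3 and Slc6a4 were in the dimmest bin, Th, Ddc and Slc18a2 in the middle bin, and Tph2, Maoa and Maob in the brightest. Of the probe sets in the bin of Tph2, 2.7% were as high or higher in ob/ob vehicle, and 7.97% were as low or lower in VE. For Slc18a2 these shares were 15.5% and 10.8%, for Maob 14.9% and 53.4%, and for Slc6a4 in the first comparison 37.6%. The brightest bin runs from 8.49 to 19.39 and Tph2, at 8.71, is near its low end, so its shares are not matched to its level. Among the 555 probe sets around 8.68, the ob/ob vehicle difference had a median of -0.16 and a 90th percentile of 0.549. After quantile normalization Tph2 was 0.99 higher in ob/ob vehicle (limma adjusted p 0.24), and after cyclic loess 1.01.

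**Figure D4:**
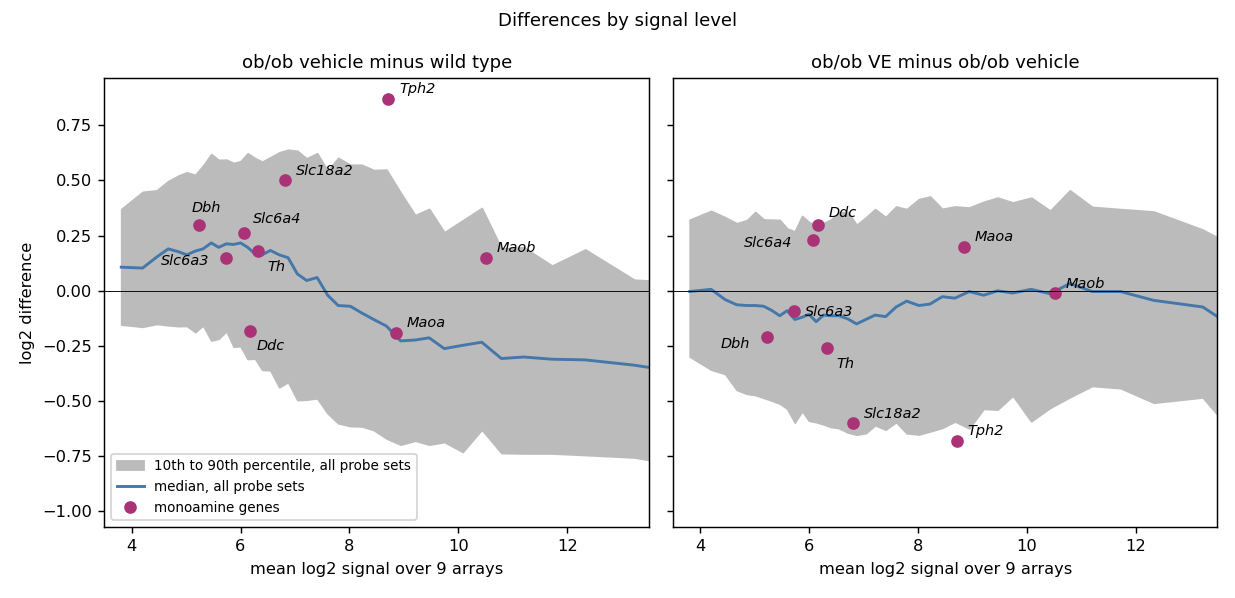
Log2 difference of each of the 9 genes (points) against its mean log2 signal over 9 arrays, with the median (line) and the 10th to 90th percentile (band) of all probe sets at that level. In ob/ob vehicle minus wild type the line slopes from above 0 to below 0, and Tph2 at 0.87 lies above the band; in VE minus ob/ob vehicle Tph2 at -0.68 lies just under it.

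Tph2 varied most over the 9 arrays (SD 0.629), followed by Dbh (0.378) and Slc18a2 (0.376). Tph2 and Slc18a2 went together with a Pearson r of 0.67 and a Spearman rho of 0.79 over 9 arrays, and an r of 0.80 over the 8 arrays without the second VE array. Other pairs of members went otherwise. Tph2 had an r of 0.76 with Dbh, -0.71 with Maoa and 0.15 with Slc6a4, and Slc18a2 one of -0.25 with Slc6a4. The arrays fall into 3 groups and share their array-wide shifts, so these values are a description. Of 2393 genes with an SD of at least 0.5, those most like Tph2 over the 9 arrays were Klk7 (r 0.94, rho 0.95), Foxi1 (0.91, 0.92), Acsbg2 (0.90, 0.90), Gm20806 (0.89, 0.81) and Lcn5 (0.89, 0.85). Those most like Slc18a2 were Prss40 (0.97, 0.98), Olfr495 (0.90, 0.65), Gm10413 (0.88, 0.83), Fam90a1a (0.88, 0.76) and Gm5795 (0.87, 0.85). Those most like Dbh were Olfr1394 (0.93, 0.77), 4930596D02Rik (0.92, 0.86), 1110025L11Rik (0.86, 0.83), Sval2 (0.80, 0.73) and Cd40 (0.79, 0.75). Olfactory receptors and predicted genes are among them. The 9 members were left out of this search whatever their SD, so none of them could be named here.

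Beside the 9 genes, 9 lists of related genes held 101 different genes, of which 82 had a probe set with their symbol, and the rest were not analysed here. In ob/ob vehicle against wild type no gene of these lists was called, and in VE against either group Nr4a2 alone was. Over all probe sets 1.27% were called in ob/ob vehicle against wild type. In VE, 0.486% were called against ob/ob vehicle and 0.0991% against wild type. With shares this small, a lack of calls in lists of this size says little. Nr4a2, a nuclear receptor needed for dopamine neurons and also an immediate early gene in other neurons, had log2 signals of 12.16, 13.08 and 12.69 in wild type, 12.67, 12.99 and 12.83 in ob/ob vehicle, and 11.39, 11.03 and 10.61 in VE. All 3 VE arrays lay below the other 6. Nr4a2 fell by 1.82 from ob/ob vehicle to VE (SE 0.267, limma adjusted p 0.0334), and against wild type the VE difference was -1.63 (limma adjusted p 0.0472). With the arrays rescaled by quantiles, by their medians or by cyclic loess the first call held (limma adjusted p 0.0163, 0.0405 and 0.00947) and the second did not (0.227, 0.0501 and 0.158). The first call was lost without any single ob/ob vehicle array, without wild-type array 2 or 3, with the 2 groups alone and with 1-symbol probe sets alone (limma adjusted p up to 0.209), and it held under 12 of 19 settings. The call against wild type held under 6 of 19. It was also lost with trend and robust moderation, the replicate block or the 2 groups alone (limma adjusted p 0.0555, 0.0711 and 0.255), and without wild-type array 2 or 3, any single ob/ob vehicle array or the third VE array (up to 0.314). Th, Slc6a3, Slc18a2 and Ddc, which Nr4a2 is known to regulate in dopamine neurons, stood at -0.26, -0.09, -0.60 and 0.30 in the same comparison, none of them called.

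The other 17 genes of dopamine neuron identity included none that was called, and the list medians were 0.09, -0.21 and -0.07 in the 3 comparisons, against 0.02, -0.07 and -0.07 over all probe sets. Lmx1b, a transcription factor of dopamine and serotonin neurons, was at 6.67, 6.66 and 6.69 in wild type and at 7.46, 7.40 and 7.29 in ob/ob vehicle. All 3 ob/ob vehicle arrays were above, and the difference of 0.71 (SE 0.19) had a limma adjusted p of 0.0757. It was called under 4 of 18 settings, among them without the second VE array (limma adjusted p 0.0135), where 2975 of the 22206 probe sets were called. It was not called after quantile normalization, centring or cyclic loess (limma adjusted p 0.101, 0.09 and 0.0803), under the replicate block (0.0819), or without any single wild-type or ob/ob vehicle array (0.133 to 0.219). Lmx1a was 0.45 higher (limma adjusted p 0.21), and Calb1 and Aldh1a1 were at -0.65 and -0.79 (limma adjusted p 0.325 and 0.0719). Of 10 measured serotonin neuron genes none was called, with list medians of -0.04, -0.03 and -0.14. Htr1a, the autoreceptor of serotonin neurons that is also found in cortex and hippocampus, was at -0.73 in ob/ob vehicle and in VE against wild type (limma adjusted p 0.148 and 0.285). Htr5b and Htr1b were at -0.52 and 0.16 in VE against ob/ob vehicle. Of 5 measured noradrenaline neuron genes none was called, with list medians of 0.34, -0.12 and -0.01, and Galr1, Hand2, Slc6a2 and Phox2a stood 0.47, 0.56, 0.34 and 0.11 higher in ob/ob vehicle than in wild type, and Gal, the fifth, was at -0.09. After quantile normalization Phox2a was at -0.07 and Slc6a2, Galr1 and Hand2 were at 0.16, 0.32 and 0.39. The median difference of the dim guide probe sets was 0.35, close to that of the list.

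The tetrahydrobiopterin list holds genes tied to the cofactor of Th and Tph2, most of them for enzymes that make or recycle it. Gchfr and Dnajc12 are in the list but are not such enzymes. Of the 9 genes of the list, 8 were measured. None was called and the list medians were -0.10, 0.06 and -0.07. Pcbd1, which recycles the cofactor, was at 7.60, 7.49 and 7.45 in wild type, 6.79, 6.26 and 6.02 in ob/ob vehicle, and 6.92, 6.35 and 7.48 in VE. The ob/ob vehicle arrays were all lower than wild type, with a difference of -1.16 (SE 0.283, limma adjusted p 0.0634, called under 8 of 18 settings). Several alternative settings called many more probe sets than the fit as deposited, by the counts given for Tph2, so a call is common there. Qdpr, which regenerates the cofactor, was at -0.95 (limma adjusted p 0.128), and Pcbd2 and Dnajc12 were at -0.16 and -0.20. Qdpr is abundant in oligodendrocytes, whose markers had a median of -1.18 in the same comparison with all 7 measured genes below 0 and 2 of 7 called. In that comparison 1.27% of all probe sets were called. The third of probe sets with the highest signal, which holds Qdpr, had a median of -0.27, and of -0.04 after quantile normalization. The part of either shift in Qdpr was not tested.

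Among 13 measured enzymes beyond the members none was called, with list medians of -0.14, 0.10 and -0.05. The aldehyde dehydrogenases Aldh1a1 and Aldh2, which oxidise the aldehydes that monoamine oxidases form, were at -0.79 and -0.66 in ob/ob vehicle against wild type (limma adjusted p 0.0719 and 0.0937) and 0.69 and 0.43 higher in VE than in ob/ob vehicle (limma adjusted p 0.161 and 0.366). For both genes the ob/ob vehicle arrays lay below those of either other group. Comtd1 and Aldh3a2 were at -0.62 and -0.27 in ob/ob vehicle. Among 8 measured transporters beyond the members none was called, with list medians of -0.08, -0.07 and -0.32. Slc29a4, the plasma membrane monoamine transporter, was at 8.99 ± 0.806 in wild type, 8.32 ± 0.251 in ob/ob vehicle and 7.61 ± 0.201 in VE (SD, n = 3), and VE against wild type was -1.38 (SE 0.329, limma adjusted p 0.134). Slc7a5, a carrier of large neutral amino acids including tyrosine and tryptophan, was at -0.84 in ob/ob vehicle (limma adjusted p 0.0694), and Slc22a2 was 0.50 higher in VE than in ob/ob vehicle.

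All 7 measured partners of tyrosine hydroxylase and the transporters had estimates below 0 in ob/ob vehicle against wild type, with a median of -0.61 and none called. That common direction depended on the scaling: after quantile normalization Ywhaz was at 0.03 and after cyclic loess at 0.07. Sncg, Syngr3, Ywhag and Ywhaz were at -0.63, -0.61, -0.68 and -0.36 as deposited. After quantile normalization Sncg, Syngr3 and Ywhag were at -0.81, -0.36 and -0.30. In VE against ob/ob vehicle the same 4 genes, in the order first given, were at 0.45, 0.41, -0.24 and -1.08, and Ywhaz was at -0.08 after quantile normalization. Ywhaz was at 15.12 on the second VE array and at 17.52 or more on the other 8. Among 14 measured dopamine receptor and striatal genes none was called, and the list median was -0.03 in ob/ob vehicle against wild type, 0.62 in VE against ob/ob vehicle and 0.37 in VE against wild type. Drd1, the main dopamine receptor of the direct striatal pathway, was at 6.86 ± 0.419 in wild type, 7.19 ± 0.159 in ob/ob vehicle and 8.02 ± 0.121 in VE (SD, n = 3), with VE 0.83 above ob/ob vehicle (SE 0.23, limma adjusted p 0.124). Rgs9, Tac1 and Pde1b stood 1.73, 1.18 and 0.68 higher in VE. The median of 5 measured striatum markers, which share Drd1, Rgs9 and Tac1 with this list, was 1.69 and 1.53 on VE arrays 1 and 3 and 0.14 on array 2, and -0.52 to 0.51 on ob/ob vehicle arrays. The part of striatal tissue in these values was not tested. The autoreceptor list also holds Kcnj6, a potassium channel gene and not a receptor. Of the 8 measured genes of that list none was called, with list medians of 0.00, 0.01 and 0.04. Drd3, Drd2 and Kcnj6 were at 0.67, 0.09 and -0.33 in ob/ob vehicle against wild type.

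**Figure D5:**
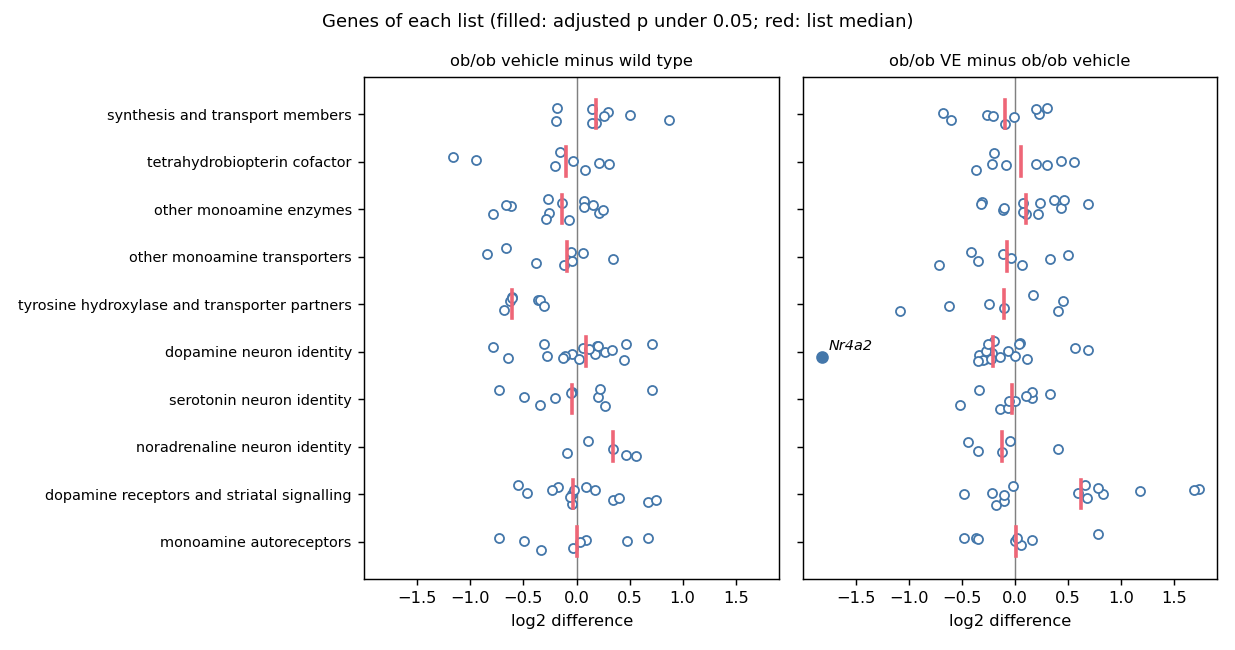
Log2 difference of every measured gene of the 9 members and the 9 related lists (points; a gene can be in several lists), with the list median as a red line, in the first 2 comparisons. Nr4a2 at -1.82 in VE minus ob/ob vehicle is the only filled point, that is, the only gene with a limma adjusted p under 0.05.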

How the data were processed

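The deposited values were log2 signals per probe set of Clariom S mouse arrays, which the authors made with the signal space transformation form of RMA, per the labels' protocols; the submitters' processing notes name Transcriptome Analysis Console 4. They were used without a further normalization. Of 22206 probe sets, 19572 carried 1 gene symbol and 2634 none. A mean per group was fitted over all 9 arrays with limma 3.58.1 in R 4.3.3, whose moderated variances rested on 6 residual degrees of freedom and a prior of 7.03. P-values were adjusted by Benjamini and Hochberg's method across every probe set, and an adjusted p under 0.05 was called. The design text states detection and area-under-curve filters, which were not used here; 3 arrays per group limit the precision. The fit was tested on simulated data. The members and lists were chosen with earlier results of these data known. Named were all members, every called gene of a list and up to 4 more of each list by the smallest F-test p; likeness took the 5 highest correlations for the 3 members with the largest SD. Alternatives were 3 scalings, other moderation, array weights, fewer probe sets, 2 groups alone, a replicate block, other thresholds and leaving out each array; quantile normalization without the second VE array and the counts of members were added after seeing the data. The same-numbered arrays of the labels did not deviate together in every pair. The fit was unpaired, and a pairing was not excluded. Protein sequences were not used here, and Maob had no promoter in the table used.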

Additional observations from a re-analysis of the deposited data

How the results depend on the processing

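No member was called under quantile normalization, median centring, cyclic loess, trend and robust moderation, 1-symbol probe sets alone, the replicate block or an adjusted p under 0.1. With a filter at the median level only Tph2, Maoa and Maob were tested. Of 549 values of the 27 member differences under alternatives, 500 kept sign and call, 12 gained a call and 37 changed sign. Of the 27 differences, 14 kept their sign throughout. Some alternatives change only the test, the threshold, the probe sets tested or a group outside the comparison. These reuse the same estimates, so the counts include values whose sign could not change. The number of members called was 1 (Tph2), 4 and 1 (Slc6a4) in the 3 comparisons with array weights, 1, 1 and 0 by the authors' rule, 1, 0 and 0 with 2 groups alone or with quantile normalization without VE array 2, and 0 to 1, 0 to 1 and 0 when an array was left out. The counts of called probe sets, 281, 108 and 22, became 631, 324 and 0 after quantile normalization, 614, 71 and 7 after centring, 808, 376 and 0 after cyclic loess, 354, 225 and 10 with trend and robust moderation, 3601, 3307 and 3286 with array weights, 407, 180 and 49 above the median level, 206, 0 and 22 with 1 symbol, 2626, 0 and 0 with 2 groups alone, 4457, 2962 and 2707 by the authors' rule, 1204, 433 and 109 at adjusted p under 0.1, and 1970, 418 and 19 with quantile normalization without VE array 2. They were 0 to 2975, 0 to 403 and 0 to 158 when an array was left out, highest in the first 2 without VE array 2 and in the last without VE array 1. The F test's 238 became 473, 368, 629, 364, 6321, 364 (median level), 122 (1 symbol) and 884 (adjusted p under 0.1) in the same order, and 0 to 1926 with an array left out. Higher calls were 42.3% in ob/ob vehicle against wild type, 60.4% after quantile normalization, 60% after cyclic loess and 27% after centring; in VE against ob/ob vehicle they were 2.78%, 18.5%, 17.3% and 12.7%. The replicate block gave 251, 144 and 2 calls and 200 by the F test, changed no call of a member and ended that of Nr4a2 in VE against wild type. The deviations of same-numbered arrays correlated at -0.03 to 0.33 over 9 pairs, 4 of them over 0.1, which cannot exclude a pairing by number. Between ob/ob vehicle and VE, arrays 1 and 2 correlated at 0.33 and 0.22 with the same number, and at -0.29 and -0.24 when crossed. Array weights also called Tph2 (-0.86) and Slc18a2 (-0.80, limma adjusted p 0.0084) in VE against ob/ob vehicle. Signs changed as follows, and the cause was not tested. Slc6a3 was at -0.03 (quantile) and -0.02 (loess) in ob/ob vehicle against wild type, at 0.03 (quantile, centring) and 0.02 (loess) in VE against ob/ob vehicle, and at -0.01 (loess) in VE against wild type. Maob in VE against ob/ob vehicle was at 0.03 (quantile) and 0.11 (centring). With array weights Th was at 0.17 and 0.37 in VE against ob/ob vehicle and wild type, and Tph2 and Dbh at -0.03 and -0.10 against wild type. With quantile normalization without VE array 2, Slc6a3 was at -0.03 in ob/ob vehicle and -0.06 in VE against wild type, Th at 0.14 and 0.17, Tph2 at -0.20 and Dbh at -0.16, and Tph2 in VE against ob/ob vehicle at -1.20 (limma adjusted p 0.0512). With an array left out, the ranges that crossed 0 were, in ob/ob vehicle against wild type, -0.01 to 0.38 for Slc6a3 and -0.02 to 0.28 for Maob; in VE against ob/ob vehicle, -0.50 to 0.01 for Th, -0.32 to 0.07 for Slc6a3, -0.05 to 0.43 for Slc6a4 and -0.14 to 0.15 for Maob; and in VE against wild type, -0.32 to 0.19 for Th, -0.26 to 0.57 for Tph2, -0.04 to 0.26 for Ddc, -0.13 to 0.37 for Dbh, -0.06 to 0.18 for Slc6a3, -0.16 to 0.02 for Slc18a2 and -0.11 to 0.11 for Maoa. Signal over background limits the 6 dim members.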
